A study of Mus musculus with 21 samples.

Results

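Expression of 9 genes of blood clotting and clot breakdown was examined in myeloid cells sorted from the injured mouse brain: F3, F5, F7, F10, F13a1, Plau, Plaur, Thbd and Serpinb2. The genes were taken by symbol from a list chosen with earlier results of these data known. All 9 were found among the 45706 gene identifiers of the count table. Each had 1 identifier, and all 9 had enough counts to be tested. The study asked how fibrin, the clot protein, acts on microglia and infiltrating myeloid cells after traumatic brain injury, and the question here was where the genes that make and dissolve fibrin are themselves expressed.

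The 21 bulk RNA-seq libraries fell into 7 groups of 3. Male mice aged 17 to 24 weeks on the C57BL/6 background received a controlled cortical impact (CCI), in which a piston strikes the exposed cortex. Microglia were sorted as CD45low CD11b+ cells from wild-type (WT) and from Fgg390-396A mice at 1 d and at 7 d after CCI, and infiltrating myeloid cells as CD45hi CD11b+ cells from both genotypes at 1 d only. Sham microglia came from mice labelled sham that had a craniotomy and no impact, with no day given. Their titles name no genotype, and they are read here as wild type. No group labelled as uninjured mutant mice is in the data, so on this reading a comparison of mutant microglia with sham microglia mixes genotype and injury. Fgg390-396A mice (Fgg γ390–396A in the plots, called mutant below) are germline mutants of the fibrinogen gamma chain, altered at the contact site for CD11b/CD18, an integrin of myeloid cells, with clot formation preserved. Each library held the cells of 2 mouse brains pooled at random, so that values describe pools and not single animals. All comparisons with sham microglia used the same 3 sham libraries.

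Coagulation starts when tissue factor (F3) meets factor VII (F7) on a cell surface and activates factor X (F10), which with factor V (F5) turns prothrombin into thrombin. Thrombin cuts fibrinogen to fibrin, factor XIII (A subunit, F13a1) cross-links the fibrin strands, and thrombomodulin (Thbd) redirects thrombin to the anticoagulant protein C pathway. Fibrin is dissolved by plasmin, which urokinase (Plau) generates at the cell surface while bound to its receptor (Plaur), and plasminogen activator inhibitor 2 (Serpinb2) inhibits urokinase. The liver supplies most clotting factors of the plasma, whereas monocytes and macrophages are known to make several of them and to carry the urokinase receptor.

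Total counts ran from 18896957 to 51875767 per library with a median of 27001646, and 3 counts, taken as the detection floor, corresponded to between 0.0448 and 0.158 CPM (read counts scaled to a library of fixed size). Between 43.0% and 58.5% of the counts were assigned to ribosomal RNA genes. The sham libraries, at 43.4% to 47.8%, lay below WT microglia at 1 d, at 50.6% to 58.5%. CPM values below were scaled by TMM factors (trimmed mean of M values, 0.735 to 1.55; 1.39 to 1.55 in sham and at most 1.29 elsewhere; the part of these gaps in the comparisons with sham was not tested), and levels are compared between genes on the reading that the deposited values are the pipeline's scaled counts, in which gene length is divided out within a library. That reading comes from the name of the pipeline's output in the study's methods and could not be checked in the values. Microglia markers summed to 3170 to 13000 CPM in the microglia libraries and to 370 to 1070 CPM in the infiltrating cells, and all 9 of these markers were lower in the infiltrating cells in both genotypes. Monocyte markers summed to 1900 to 2260 CPM in infiltrating cells, and neutrophil markers to 2800 to 13300 CPM, so the CD45hi gate held both cell types. Markers of border-associated macrophages, the resident macrophages of meninges and perivascular spaces, summed to 1170 to 2030 CPM in WT and 1240 to 2040 CPM in mutant infiltrating libraries. The part of such cells in this gate was not tested. In such bulk samples, fewer cells of a type and less RNA per cell cannot be told apart. Fgg itself had 0 counts in the 12 sham and WT libraries and 33 counts over 7 of the 9 mutant libraries. These counts do not show the mutated bases and so do not check the genotype labels.

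Most of the 9 genes were higher in the infiltrating cells. In WT mice at 1 d, 8 of the 9 genes were higher in infiltrating myeloid cells than in microglia from the same injury and time (adjusted p under 0.05 and more than 1 log2 unit), and the lowest infiltrating library lay above the highest microglial library for each of the 8. Over all 23815 genes tested, 11.9% passed in either direction and 29.2% had groups without overlap. In the mutant mice, 7 of 9 genes were higher, again without overlap between the groups, where 16.7% of all genes passed in either direction and 32.1% had groups without overlap. F3 passed in neither genotype, and Plau passed in WT cells only. Whether the genotypes differed in this was tested as an interaction of genotype and population, for which 0 of the 9 genes passed with edgeR or DESeq2 (2 of the 9 at an unadjusted p under 0.05) and 0.0462% of all genes passed with edgeR. The median log2 fold change of the 9 genes was 4.69 in WT and 4.66 in mutant cells, where the median over all genes was 0 and -0.13. Because the 9 genes were chosen with earlier results of these data known, these contrasts with all genes are no test of the set. The CPM of the 9 genes summed to 496 to 687 in WT and 321 to 453 in mutant infiltrating libraries, and to 15.5 to 58.4 in the 15 microglia libraries.

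**Figure D1:**
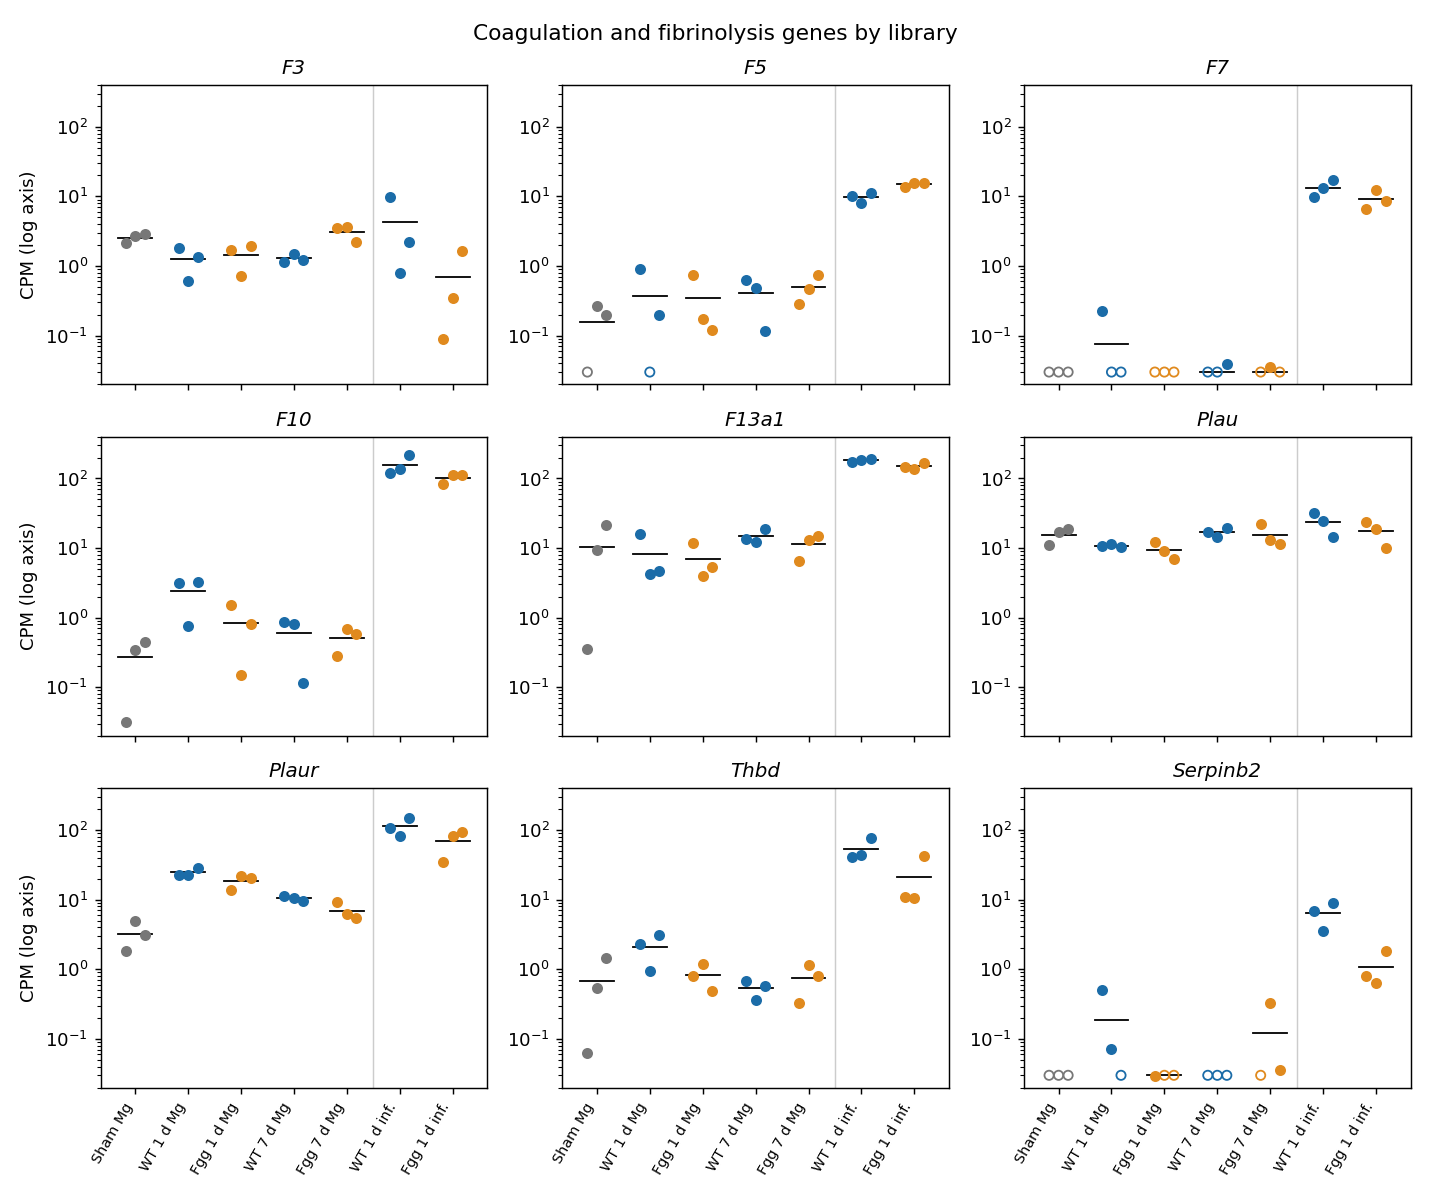
CPM of each gene (log axis) in the 21 libraries, with the group mean as a line; open circles at the bottom are libraries with 0 counts, and means too low for the axis are drawn there too. Mg is microglia and inf. is infiltrating myeloid cells. For F5, F7, F10, F13a1, Plaur, Thbd and Serpinb2 every infiltrating library lies above every microglia library, narrowly so for Plaur (34.9 against 28.4 CPM) and Serpinb2 (0.642 against 0.496 CPM).

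F7 and F10 are neighbours on chromosome 8, 1499 bases apart and on the same strand (GRCm38, F7 at chr8:13026034-13035809 and F10 at chr8:13037308-13056676). Factor VII is the protease that tissue factor binds, and factor X is its main substrate. F7 was measured at 9.67, 13.2 and 17.1 CPM in the WT infiltrating libraries and at 6.60, 12.5 and 8.65 CPM in the mutant ones. In WT microglia at 1 d it had 6 counts in a single library and 0 in the others, and in mutant microglia at 1 d it had 0 counts in every library. F7 transcripts were thus at or near the floor in microglia and readily counted in infiltrating cells. The level in WT infiltrating cells was 175-fold that of WT microglia, a ratio that rests on those 6 counts, without which the microglia stood at 0 (edgeR quasi-likelihood test with Benjamini-Hochberg adjustment, adjusted p = 5.3e-05). In mutant cells it was at least 115-fold higher when the microglia were set to 3 counts per library (edgeR adjusted p = 1.1e-05).

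F10 was far more abundant than F7. The WT infiltrating libraries held 121, 137 and 215 CPM and the mutant ones 82.8, 112 and 113 CPM, which placed F10 at percentile 97.8 and 96.7 of the protein-coding genes in these groups. Microglia at 1 d held 3.17, 0.760 and 3.28 CPM in WT and 1.54, 0.151 and 0.804 CPM in mutant mice. The log2 fold change of infiltrating cells over microglia was 6.04 (SE 0.70, edgeR adjusted p = 6.1e-06) in WT and 6.89 (SE 0.74, edgeR adjusted p = 1.9e-06) in mutant mice. The lowest infiltrating library was above the highest microglial one in each genotype.

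The upstream sequences of these neighbours are shown to let their promoters be compared, as the genes shared the same split between populations. They were taken from RefSeq (GRCm38.p6) and give the 250 bases before each annotated start; 7 of the 9 genes were in that table. A search on both strands for AP-1 (TGACTCA or TGAGTCA), NF-kB (the kappa-B motif), PU.1 (GAGGAAGT) and C/EBP (TTGCNNAA) found none of these in the window of F7 or F10, so no letters are capitalised.
F7, chr8:13025784-13026033, + strand: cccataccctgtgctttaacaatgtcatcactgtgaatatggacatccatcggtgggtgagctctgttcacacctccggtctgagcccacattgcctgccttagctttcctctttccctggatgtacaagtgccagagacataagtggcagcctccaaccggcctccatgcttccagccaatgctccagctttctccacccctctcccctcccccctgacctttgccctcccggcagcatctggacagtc
F10, chr8:13037058-13037307, + strand: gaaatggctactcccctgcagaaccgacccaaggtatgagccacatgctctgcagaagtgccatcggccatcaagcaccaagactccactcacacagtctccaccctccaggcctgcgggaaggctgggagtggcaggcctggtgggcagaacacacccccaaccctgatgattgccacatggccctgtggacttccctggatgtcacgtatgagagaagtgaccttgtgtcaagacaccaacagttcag

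F5 encodes factor V, the cofactor of factor X. Infiltrating cells held 10.3, 7.95 and 11.3 CPM in WT and 13.6, 15.5 and 15.8 CPM in mutant mice. Microglia of all 5 groups lay at or below 0.916 CPM, with 0 counts in 1 sham and 1 WT library at 1 d. The log2 fold change over microglia at 1 d was 4.72 (SE 0.95, edgeR adjusted p = 0.0016) in WT and 5.32 (SE 0.96, edgeR adjusted p = 0.00048) in mutant cells. F5 overlaps the long noncoding RNA Gm16548 on the opposite strand and the pseudogene Gm16588 on its own strand, and reads in the shared stretches cannot be assigned with certainty because strand handling is not given in the sources used here. Those genes reached means of at most 0.703 and 2.01 CPM in any group.

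F13a1, the subunit of factor XIII that cross-links fibrin and a transcript long known in monocytes and tissue macrophages, was the most abundant of the 9 genes in the infiltrating cells. It was measured at 171, 182 and 191 CPM in WT and at 148, 136 and 166 CPM in mutant infiltrating libraries, against 15.8, 4.27 and 4.72 CPM in WT and 11.7, 3.95 and 5.42 CPM in mutant microglia at 1 d. The log2 fold change was 4.46 (SE 0.82, edgeR adjusted p = 7e-04) in WT and 4.40 (SE 0.82, edgeR adjusted p = 0.00061) in mutant mice. Antisense genes Gm49144 and Gm30489 overlap F13a1, and their reads cannot be told apart from it here.

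Within microglia, F13a1 spread more among sham libraries than between groups. The 3 sham libraries held 0.351, 9.38 and 21.5 CPM, while WT microglia at 7 d held 13.5, 12.4 and 18.6 CPM and mutant microglia at 7 d held 6.58, 13.1 and 14.8 CPM. No comparison among microglia passed for this gene. In the same 3 sham libraries, 7 markers of border-associated macrophages, the resident macrophages of meninges and perivascular spaces, summed to 5, 113 and 232 CPM. Over all 15 microglia libraries that sum ran from 5 to 252 CPM, with none of the 7 markers at 0 in any group, and the CD45low CD11b+ gate does not remove such cells by a marker of their own. The part of these cells in the F13a1 level of microglia or of infiltrating libraries was not tested.

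**Figure D2:**
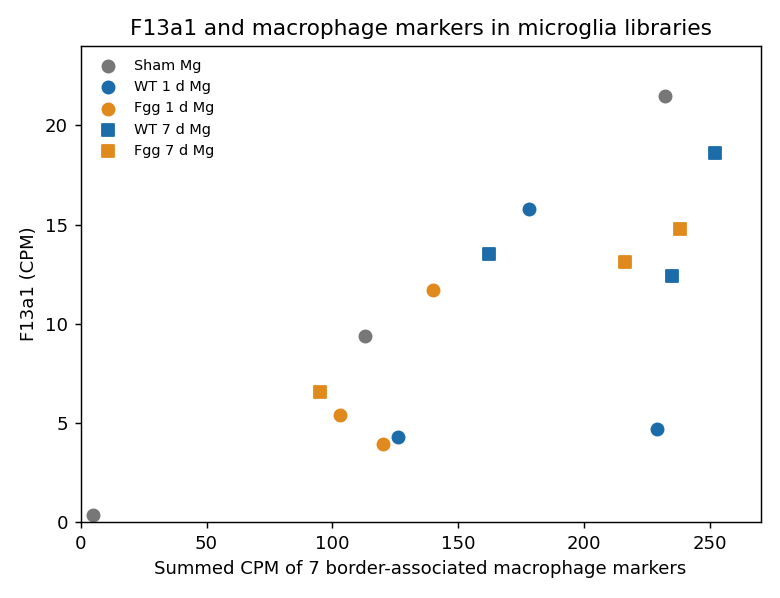
F13a1 (CPM, vertical axis) against the summed CPM of 7 border-associated macrophage markers (horizontal axis) in the 15 microglia libraries, 1 point per library. The sham library at 0.351 CPM of F13a1 has a marker sum of 5, and the one at 21.5 CPM has a sum of 232; one WT library at 1 d lies apart, with 4.72 CPM at a sum of 229.

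Thbd, the thrombin receptor that turns thrombin toward anticoagulation, followed the clotting factors. Infiltrating cells held 41.6, 44.2 and 77.3 CPM in WT and 11.1, 10.7 and 42.0 CPM in mutant mice. Microglia at 1 d held 2.29, 0.941 and 3.08 CPM in WT and 0.791, 1.21 and 0.482 CPM in mutant mice. The log2 fold change was 4.69 (SE 0.73, edgeR adjusted p = 0.00013) in WT and 4.66 (SE 0.73, edgeR adjusted p = 0.00013) in mutant cells. Thbd is also a classic endothelial gene. The 6 endothelial markers summed to between 12 and 26.8 CPM in infiltrating and between 5.16 and 19.4 CPM in microglia libraries, beside a Thbd mean of 54.4 CPM in WT and 21.3 CPM in mutant infiltrating cells; their part in the Thbd level was not tested.

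The fibrinolysis genes split. Plaur, the urokinase receptor, was measured at 108, 82.8 and 149 CPM in WT and 34.9, 81.4 and 94.7 CPM in mutant infiltrating cells. Its log2 fold change over microglia at 1 d was 2.20 (SE 0.35, edgeR adjusted p = 0.00018) in WT and 1.91 (SE 0.35, edgeR adjusted p = 0.00053) in mutant mice, the smallest among the genes that passed in both genotypes. Microglia at 1 d thus already carried a sizeable level of the receptor, 21.8% of that of infiltrating cells in WT and 26.6% in mutant mice.

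Plau, the activator that binds Plaur, was counted in every library. Its group means ran from 9.42 ± 2.66 CPM (SD, n = 3) in mutant microglia at 1 d to 23.6 ± 9.03 CPM (SD, n = 3) in WT infiltrating cells. When the 7 groups were ordered by mean, no neighbouring pair was separated beyond the range of its libraries. The WT infiltrating libraries held 32.3, 24.2 and 14.2 CPM against 10.7, 11.3 and 10.3 CPM in WT microglia, a log2 fold change of 1.13 (SE 0.33, edgeR adjusted p = 0.025). That call was lost when any one of the 3 WT microglia libraries at 1 d or the first WT infiltrating library was left out (edgeR adjusted p up to 0.14, against 0.0044 at the lowest over all alternatives). In mutant mice the value was 0.88 (SE 0.33, edgeR adjusted p = 0.065), and it passed under 4 of the alternatives, with edgeR or DESeq2 adjusted p between 0.014 and 0.21 over all of them.

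Serpinb2, the urokinase inhibitor, had low counts throughout. It was measured at 6.99, 3.53 and 9.11 CPM in WT and at 0.813, 0.642 and 1.82 CPM in mutant infiltrating cells. Microglia at 1 d had 13, 2 and 0 counts in WT and 2, 0 and 0 counts in mutant mice, and sham microglia and WT microglia at 7 d had 0 counts in all their libraries. WT infiltrating cells were 34.5-fold above WT microglia (edgeR adjusted p = 0.019), but the call was lost without the second WT microglia library (edgeR adjusted p = 0.074) or the third WT infiltrating library (0.065), the lowest over all alternatives being 0.0018. In mutant mice the ratio was 110 with a 95% counting interval of 29.7 to 918; it rests on 2 microglial counts, both in the first library and under the floor. The test passed (edgeR adjusted p = 0.011, with edgeR or DESeq2 adjusted p of 0.0011 to 0.046 over the alternatives), also without that library, when the microglia stood at 0 counts (edgeR adjusted p = 0.03). Serpinb10 overlaps Serpinb2 on the same strand and had a mean of 3.87 and 3.22 CPM in the infiltrating groups, so part of these counts is uncertain.

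F3, tissue factor, the trigger of the cascade, was the exception. Sham microglia held 2.14, 2.66 and 2.87 CPM, WT microglia 1.83, 0.615 and 1.37 CPM at 1 d, and mutant microglia 1.69, 0.730 and 1.93 CPM at 1 d. The WT infiltrating libraries held 9.87, 0.790 and 2.21 CPM and the mutant ones 0.0904, 0.345 and 1.62 CPM. A single WT infiltrating library stood apart, and otherwise the 2 populations overlapped. The log2 fold change of WT infiltrating cells over microglia was 1.76 (SE 0.82, unadjusted p = 0.045, edgeR adjusted p = 0.17), ranging from 0.24 to 2.28 over the alternatives. In mutant mice the mean was lower in infiltrating cells (0.686 CPM) than in microglia at 1 d (1.45 CPM), with overlapping groups and no call. At 7 d, WT microglia held 1.15 to 1.5 CPM and mutant microglia 2.22 to 3.59 CPM. Astrocytes are a known source of tissue factor in brain, although a CD11b+ gate should remove them. The 6 astrocyte markers summed to 44.7 to 54.2 CPM in sham microglia, 13.3 to 23.3 CPM in microglia at 1 d, 33.8 to 36.6 CPM in WT and 37.8 to 41.2 CPM in mutant microglia at 7 d and 9.97 to 21.4 CPM in infiltrating cells; their part in the F3 level was not tested.

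**Figure D3:**
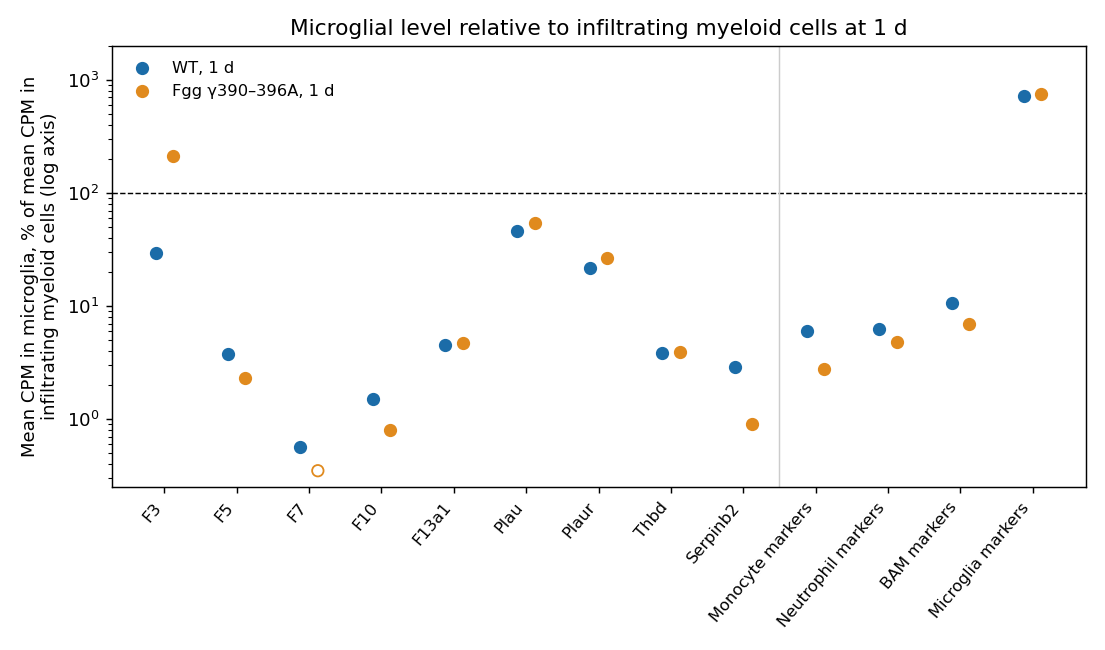
Mean CPM in microglia at 1 d as a percent of mean CPM in infiltrating myeloid cells of the same genotype (log axis; the dashed line is 100%), for the 9 genes and for 4 summed marker lists. The open circle marks 0 counts of F7 in mutant microglia. F5, F7, F10, F13a1, Thbd and Serpinb2 lie at or below 4.69%, Plaur and Plau between 21.8% and 53.9%, and microglia markers at 721% and 753%. F3 lies at 29.6% in WT and at 211% in mutant mice.

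The transcripts of infiltrating cells were also seen at a low level in the microglia libraries as a whole. Monocyte markers in microglia at 1 d amounted to 5.99% (WT) and 2.76% (mutant) of their level in infiltrating cells, neutrophil markers to 6.26% and 4.85%, and border-associated macrophage markers to 10.7% and 6.96%. F10 (1.52% and 0.809%), F5 (3.76% and 2.32%), Thbd (3.87% and 3.89%), F13a1 (4.55% and 4.69%) and Serpinb2 (2.90% and 0.911%) lay in the same range or below it. Plaur at 21.8% and 26.6%, Plau at 45.7% and 53.9% and F3 at 29.6% and 211% lay above all 3 lists in both genotypes. Endothelial markers stood at 74.3% and 55.3%, astrocyte markers at 118% and 135%, and megakaryocyte and platelet markers at 14.8% and 25.7%. Plau in both genotypes and F3 in WT lay below the endothelial and astrocyte lists, and so did Plaur. The part of residual monocytes or macrophages in the microglial level of F10, F5, Thbd, F13a1 and Serpinb2 was not tested. Nor was the part of other cells in the level of Plaur, Plau and F3.

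Leaving out 1 library widened several of these gaps. The first WT microglia library at 1 d was the highest of its group for F5 and F13a1, and without it the log2 fold changes of infiltrating cells over microglia were 6.63 for F5 and 5.34 for F13a1. The first mutant microglia library at 1 d was likewise the highest for F5, F10 and F13a1, and without it the values were 6.59, 7.86 and 5.00. Monocyte markers summed to 145 CPM in the former library (147 and 84.6 CPM in the others of its group) and to 99.3 CPM in the latter (32.5 and 37.9 CPM). Neutrophil markers summed to 843 CPM in the former (174 and 568 CPM) and to 438 CPM in the latter (133 and 106 CPM). The part of either cell type in these values was not tested. The gap of Thbd in mutant cells narrowed to 3.69 without the third infiltrating library. All of these kept their calls.

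Next, the response of microglia to injury was compared with sham. At 1 d, 2 of the 9 genes rose in WT microglia, F10 and Plaur, where 12.3% of all genes passed; 5 of the 9 had an unadjusted p under 0.05. In mutant microglia at 1 d, Plaur alone rose, where 6.64% of all genes passed. At 7 d, Plaur alone rose in WT microglia (2.02% of all genes passed), and 0 of the 9 genes passed in mutant microglia by edgeR or DESeq2 (0.663% of all genes passed; 2 of the 9 had an unadjusted p under 0.05). With 9 genes, these shares rest on 2 calls or fewer. How many of all genes had groups without overlap was not computed for comparisons among microglia, so separations given below have no background.

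Plaur gave the clearest time course. Sham microglia held 1.82, 4.90 and 3.07 CPM. WT microglia held 22.9, 22.8 and 28.4 CPM at 1 d and 11.2, 10.6 and 9.55 CPM at 7 d. Mutant microglia held 14.0, 21.7 and 20.4 CPM at 1 d and 9.27, 6.17 and 5.41 CPM at 7 d. The sham libraries lay below every injured library, and within each genotype every library at 1 d lay above every library at 7 d.

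Over sham, the log2 fold change of Plaur at 1 d was 2.93 (SE 0.37, edgeR adjusted p = 1.4e-05) in WT and 2.52 (SE 0.37, edgeR adjusted p = 0.00011) in mutant microglia, or 7.58-fold and 5.73-fold by the group means. At 7 d it was 1.68 (SE 0.36, edgeR adjusted p = 0.011) in WT, a call lost without the first sham library (edgeR adjusted p = 0.077, against 0.00017 to 0.077 over the alternatives). In mutant microglia at 7 d it was 1.10 (SE 0.36, unadjusted p = 0.0059), which failed the correction (edgeR adjusted p = 0.25) although all 3 libraries lay above sham. Between 1 d and 7 d the level fell by 1.24 on the log2 scale in WT (SE 0.35, edgeR adjusted p = 0.024) and by 1.42 in mutant microglia (SE 0.35, edgeR adjusted p = 0.018). In these comparisons of 7 d with 1 d, Plaur was the single gene of the 9 to pass in each genotype, where 7.06% and 3.54% of all genes passed. The fall in WT lost its call without the third library at 1 d, or the second or the third at 7 d (edgeR adjusted p 0.076 to 0.095), and the fall in mutant microglia without the second or the third library at either time (0.066 to 0.10). DESeq2 kept both calls, and over all alternatives the adjusted p ran from 0.0038 to 0.095 in WT and from 0.0031 to 0.10 in mutant microglia.

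**Figure D4:**
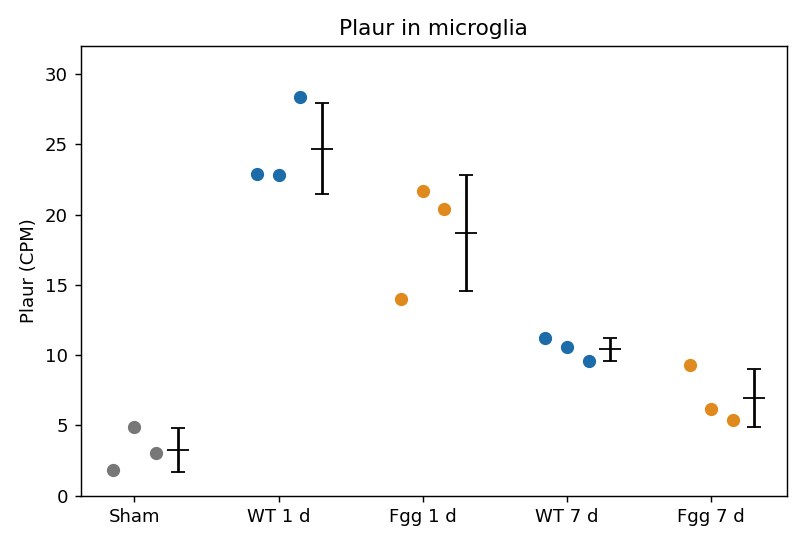
Plaur (CPM) in the 15 microglia libraries, 1 point per library, with the mean and SD of 3 libraries beside them. Sham libraries sit at 1.82 to 4.90 CPM, injured libraries at 14.0 to 28.4 CPM at 1 d and at 5.41 to 11.2 CPM at 7 d.

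Ordered by mean level, Plaur ran from WT and mutant infiltrating cells through WT and mutant microglia at 1 d, then WT and mutant microglia at 7 d, to sham. Of the 6 neighbouring pairs, 5 were separated beyond the range of their libraries, the exception being the infiltrating groups. None of the other 8 genes had more than 2 separated neighbours. Such counts were not computed over all genes and have no background here. In microglia at 1 d, mean Plaur stood at percentile 88.8 (WT) and 85.6 (mutant) of protein-coding genes, compared with 62.3 in sham.

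The promoter of Plaur, the gene called in most comparisons, is shown with that of F3, which passed in no edgeR comparison, because both hold an AP-1 motif. Capitals mark motif matches. In the Plaur window, TGACTCA lies 69 to 63 bases before the start and TTTAGCAA, the C/EBP motif read on the opposite strand, 59 to 52 bases before it; these do not overlap. In the F3 window, TGAGTCA lies 135 to 129 bases before the start.
Plaur, chr7:24462233-24462482, + strand: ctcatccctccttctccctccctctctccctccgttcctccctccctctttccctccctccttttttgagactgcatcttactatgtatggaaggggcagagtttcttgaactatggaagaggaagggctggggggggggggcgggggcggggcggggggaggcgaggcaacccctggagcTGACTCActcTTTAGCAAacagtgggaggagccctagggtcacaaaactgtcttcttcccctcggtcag
F3, chr3:121723287-121723536, + strand: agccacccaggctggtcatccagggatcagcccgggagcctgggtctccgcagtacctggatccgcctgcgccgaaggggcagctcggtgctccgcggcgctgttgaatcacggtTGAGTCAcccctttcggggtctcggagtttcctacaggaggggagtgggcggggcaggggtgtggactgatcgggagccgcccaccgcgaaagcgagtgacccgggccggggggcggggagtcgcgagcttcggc
Of 32851 RefSeq promoter windows of this length, 4.46% held the AP-1 motif, 9.56% the C/EBP motif, 7.25% the NF-kB motif and 2.44% the PU.1 motif. Among the 7 genes with a window, AP-1 was in 2, C/EBP in 2 (Plaur and Serpinb2) and the NF-kB and PU.1 motifs in 0. A match is a description of letters, and none of these data bear on binding.

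F10 was the other gene that rose in WT microglia at 1 d. Sham libraries held 0.0319, 0.342 and 0.453 CPM, and the WT libraries at 1 d, with 3.17, 0.760 and 3.28 CPM, all lay above them. The log2 fold change was 3.07 (SE 0.74, edgeR adjusted p = 0.0061), with 8.72-fold higher means, and 3.73 without the third sham library. The call was lost when the 6 libraries compared were fitted alone (edgeR adjusted p = 0.059, the highest of a range starting at 0.002). At 7 d, WT microglia held 0.860, 0.813 and 0.116 CPM, and the change from 1 d was -2.03 (SE 0.71, unadjusted p = 0.0096, edgeR adjusted p = 0.077). In mutant microglia at 1 d the level was 1.60 log2 units over sham (SE 0.76, unadjusted p = 0.048, edgeR adjusted p = 0.24), and the groups overlapped. Without the first mutant library that value was 0.63, and without the third sham library 2.27.

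Marker sums of monocytes and neutrophils were read in the same libraries. The 8 monocyte markers summed to 6.88, 7.40 and 51.5 CPM in sham microglia, to 145, 147 and 84.6 CPM in WT microglia at 1 d, and to 99.3, 32.5 and 37.9 CPM in mutant microglia at 1 d. At 7 d the sums were 25.8 to 74.4 CPM in WT and 29.6 to 39.4 CPM in mutant microglia. None of the 8 was at 0 in any group, and Fn1 was the 1 of the 8 that passed in WT and mutant microglia at 1 d. Among the WT libraries at 1 d, the one lowest in F10 had the highest monocyte sum. The same library had the lowest neutrophil sum, given next. It also had the lowest sum of border-associated macrophage markers (126 against 178 and 229 CPM). The 10 neutrophil markers summed to 160, 249 and 816 CPM in sham microglia. At 1 d they summed to 843, 174 and 568 CPM in WT and to 438, 133 and 106 CPM in mutant microglia. The part of any of these cell types in the F10 rise was not tested.

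Other changes against sham failed the correction. In WT microglia at 1 d, Thbd was at 1.59 log2 units over sham (SE 0.70, unadjusted p = 0.036, edgeR adjusted p = 0.14) and passed when the third sham library, the highest at 1.43 CPM, was left out (edgeR adjusted p = 0.024, with a range of 0.024 to 0.37). F7 and Serpinb2, at 0 counts in sham, had 6 and 15 counts over the WT libraries at 1 d (edgeR adjusted p = 0.097 and 0.059), and DESeq2 called both (DESeq2 adjusted p = 0.044 and 0.026). Thbd was 1.96 log2 units lower at 7 d than at 1 d in WT microglia (SE 0.74, unadjusted p = 0.016, edgeR adjusted p = 0.11), with 0.669, 0.366 and 0.580 CPM at 7 d and no overlap; DESeq2 called it (DESeq2 adjusted p = 0.042). Serpinb2 had 0 counts in WT microglia at 7 d, and its decline from 1 d failed the correction (unadjusted p = 0.016, edgeR adjusted p = 0.11). In mutant microglia it had 0, 9 and 1 counts at 7 d, which also failed the correction against sham (unadjusted p = 0.023, edgeR adjusted p = 0.51).

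Plau moved little after injury. It was 0.72 log2 units lower than sham in mutant microglia at 1 d (SE 0.33, unadjusted p = 0.041, edgeR adjusted p = 0.22) and 0.71 higher at 7 d than at 1 d in the same genotype (SE 0.33, unadjusted p = 0.045, edgeR adjusted p = 0.29). In WT microglia its libraries at 1 d, at 10.3 to 11.3 CPM, all lay below those at 7 d, at 14.6 to 19.6 CPM, and the 3 sham libraries ran from 11.1 to 18.8 CPM. Of the 6 comparisons over time or against sham in microglia, Plau passed in 0 and Plaur in 5.

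The genotypes were then compared directly, with calls at an adjusted p under 0.1 and more than 1 log2 unit. None of the 9 genes passed in microglia at 1 d (0.0546% of all genes passed; 3 of the 9 had an unadjusted p under 0.05), in microglia at 7 d (0.0378%; 1 of 9) or in infiltrating cells (0.453%; 3 of 9) with edgeR. DESeq2 called 0, 0 and 1 of the 9, the last being F3. The interaction of genotype and time in microglia passed for 0 of the 9 genes and 0% of all genes by edgeR, with 653 genes at an unadjusted p under 0.05, 1 of the 9 among them, and 33 genes called by DESeq2, none of the 9 among them.

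In infiltrating cells, Serpinb2, F3 and Thbd were the genes with the largest differences. For Serpinb2, whose libraries are given above, the 3 mutant values all lay below the 3 WT values, with a log2 fold change of -2.58 (SE 1.21, edgeR adjusted p = 0.43). F3 differed by -2.63 (SE 0.85, unadjusted p = 0.0058, edgeR adjusted p = 0.24), with overlapping groups and 408 of the 472 WT counts in a single library. It passed with DESeq2 (DESeq2 adjusted p = 0.043) and without the third mutant library (-4.21, edgeR adjusted p = 0.033). Without the first WT library, which held those counts, the value was -1.11 (edgeR adjusted p = 0.65), and the adjusted p ran from 0.033 to 0.71 over the alternatives. F3 lies on chromosome 3 at chr3:121723537-121735048, 38.7 Mb from Fgg, the mutated gene; the part of any sequence linked to the mutation was not tested.

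Thbd was 1.35 log2 units lower in mutant infiltrating cells (SE 0.62, unadjusted p = 0.043, edgeR adjusted p = 0.42). The third mutant library, at 42.0 CPM, lay within the WT range, and the others, at 11.1 and 10.7 CPM, lay below it. Without the third library the gene passed at -2.32 (edgeR adjusted p = 0.097, the lowest of a range up to 0.71). F10 and F13a1 also had all mutant libraries below all WT libraries, and F5 all above, with differences too small for a call. With Serpinb2, 4 of the 9 genes had groups without overlap, where 8.02% of all genes did. Neutrophil markers summed to 3580 to 13300 CPM in WT and to 2800 to 5880 CPM in mutant infiltrating libraries, monocyte markers to 1980 to 2230 and 1900 to 2260 CPM; their part in these differences was not tested.

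In microglia, Plaur was not called different between genotypes. Mutant and WT means were 18.7 ± 4.15 and 24.7 ± 3.22 CPM at 1 d and 6.95 ± 2.04 and 10.4 ± 0.848 CPM at 7 d (SD, n = 3 each). The mutant libraries lay below the WT libraries at each time. How many of all genes had groups without overlap was not computed for any comparison among microglia, so such separation has no background here. F10 at 1 d was 1.47 log2 units lower in mutant microglia (SE 0.64, unadjusted p = 0.033, edgeR adjusted p = 0.89) with overlapping groups. That value was -2.44 without the first mutant library and -0.98 without the second. F7 and Serpinb2 at 1 d rested on 6 against 0 and 15 against 2 counts (edgeR adjusted p = 0.89 for each), and Serpinb2 at 7 d on 0 WT and 10 mutant counts (edgeR adjusted p = 1). F3 was higher in each mutant library at 7 d (3.53, 3.59 and 2.22 CPM) than in each WT library (1.15, 1.5 and 1.24 CPM), without a call.

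**Figure D5:**
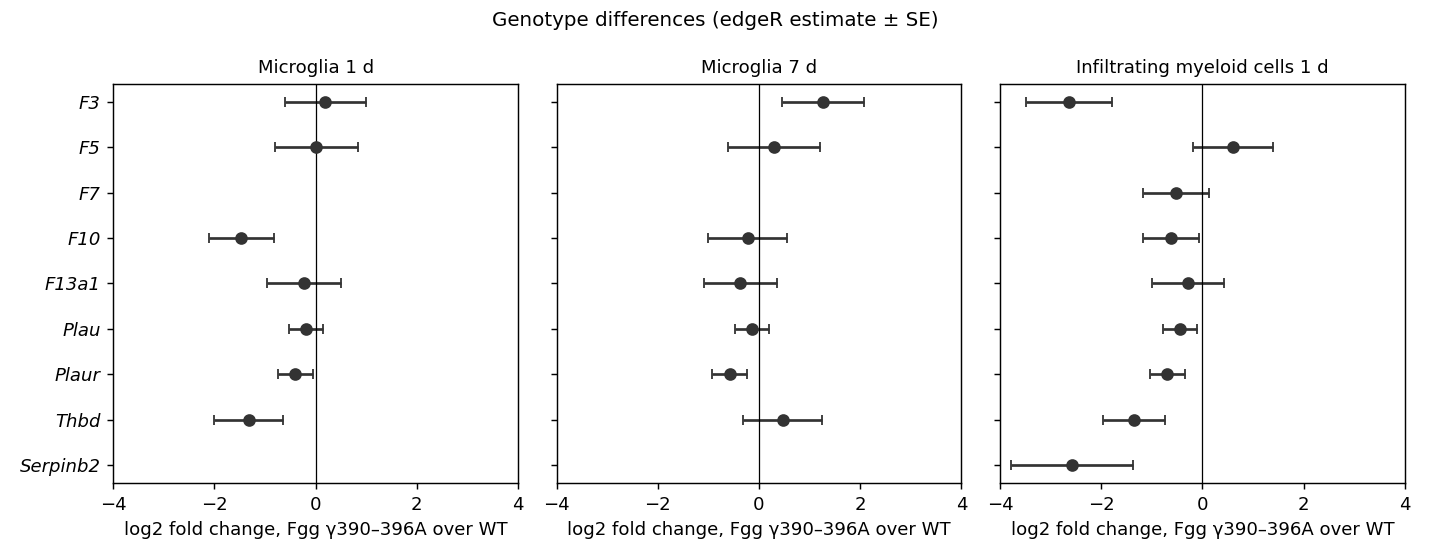
Log2 fold change of mutant over WT cells (edgeR estimate, bars ± SE) for each gene in microglia at 1 d and 7 d and in infiltrating cells at 1 d, from 3 libraries per group. A gene is left out of a panel where either group had no library above 3 counts. No estimate passed; the largest, for F3 and Serpinb2 in infiltrating cells, are -2.63 and -2.58, and the former becomes -1.11 without the first WT library.

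The wider pathway was read from 40 further genes, of which 30 had enough counts to be tested. In infiltrating cells over microglia, 5 were higher and 7 lower in WT, and 5 higher and 6 lower in mutant mice. Against 11.9% and 16.7% of all genes, these were 12 and 11 of 30. This list was also chosen with earlier results of these data known, so the contrast is no test of it. Of 6 anticoagulants tested, 2 were lower in the infiltrating cells of each genotype and 0 were higher. Pros1, which encodes protein S, was at 95.3 ± 6.92 CPM in WT microglia and 13.6 ± 1.59 CPM in WT infiltrating cells (SD, n = 3; log2 fold change -2.81, SE 0.20, edgeR adjusted p = 3.7e-08). Tfpi, the inhibitor of the tissue factor and factor VII complex, was at 30.5 ± 2.56 and 6.28 ± 3.21 CPM (log2 fold change -2.28, SE 0.43, edgeR adjusted p = 0.00083). Both were also lower in mutant infiltrating cells. Between genotypes, Pros1 was higher in mutant infiltrating cells, at 26.1 ± 8.34 CPM (SD, n = 3). Its adjusted p was under 0.1 (edgeR adjusted p = 0.046), but the log2 fold change of 0.94 (SE 0.19) missed the threshold of 1.

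Serpine2, an inhibitor of thrombin and urokinase, was at 68.1 ± 10.3 CPM in WT microglia and 6.08 ± 2.65 CPM in WT infiltrating cells (SD, n = 3; log2 fold change -3.49, SE 0.57, edgeR adjusted p = 0.00022). It was the 1 gene called of the 5 tested in the plasminogen system list, in both genotypes. Plg, the plasminogen that urokinase activates, had 0 counts in all 21 libraries, which allows at most 0.158 CPM in any of them. Vwf, von Willebrand factor, was higher in infiltrating cells of both genotypes at 2.71 ± 2.06 and 0.946 ± 0.535 CPM (SD, n = 3), and F2rl2, a thrombin receptor, at means of 3.90 and 3.38 CPM. Megakaryocyte and platelet markers summed to 33.7 to 142 CPM in infiltrating and 6.55 to 50.1 CPM in microglia libraries. Of 5 tested, 1 was higher and 1 lower in WT infiltrating cells, and 1 higher and 3 lower in mutant ones. The part of platelets or endothelial cells in the Vwf or F13a1 level was not tested. Of the genes for maturation of clotting factors, Lman1, Vkorc1 and Ggcx were lower in WT infiltrating cells, 3 of 5 tested, and Vkorc1 and Ggcx in mutant ones. Lman1 in mutant cells, at -0.96 log2 units (SE 0.18, edgeR adjusted p = 0.00058), missed only the threshold on fold change.

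Of 4 plasminogen receptors, 3 passed in WT microglia at 1 d and 2 in mutant microglia, where 12.3% and 6.64% of all genes passed. Anxa2, S100a10 and Eno1, which hold plasminogen on the cell surface, were higher in infiltrating cells in both genotypes, 3 of the 4 listed. In WT microglia at 1 d the same 3 rose over sham, with log2 fold changes of 3.26 for Anxa2 (SE 0.43, edgeR adjusted p = 2.2e-05), 1.91 for Eno1 (SE 0.22, edgeR adjusted p = 4.7e-06) and 1.61 for S100a10 (SE 0.43, edgeR adjusted p = 0.013). They fell from 1 d to 7 d, by 1.80, 1.60 and 2.08 on the log2 scale (edgeR adjusted p = 0.0058, 7.5e-05 and 0.004). In mutant microglia Anxa2 and Eno1 rose at 1 d and fell by 7 d, and S100a10 did not pass (log2 fold change over sham 1.06, SE 0.43, edgeR adjusted p = 0.15). Plgrkt, the fourth gene, passed in neither. The monocyte marker sums given for F10 are from the same libraries, and Anxa2 and S100a10 stood at 22.7 and 16.0 CPM in WT microglia at 1 d beside 347 and 485 CPM in WT infiltrating cells; the part of monocytes in these rises was not tested. Eno1 is also a glycolytic enzyme.

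F9, which encodes factor IX, went the other way in WT microglia. It was at 3.31 ± 0.531 CPM in sham, 1.00 ± 0.262 CPM at 1 d and 3.97 ± 0.446 CPM at 7 d (SD, n = 3). The log2 fold changes were -1.72 (SE 0.47, edgeR adjusted p = 0.015) and then 1.99 (SE 0.48, edgeR adjusted p = 0.0093). In mutant microglia F9 had means of 1.61 CPM at 1 d and 2.75 CPM at 7 d. Those changes were -1.04 (SE 0.46, edgeR adjusted p = 0.2) and then 0.77 (SE 0.46, edgeR adjusted p = 0.43), without a call. The genotypes were not called different at 1 d (edgeR adjusted p = 0.89). Over the 30 genes tested, 3 rose and 1 fell in WT microglia at 1 d, beside 12.3% of all genes. In mutant microglia at 1 d, 2 rose and 0 fell, beside 6.64%. At 7 d against sham, 0 passed with edgeR (3 in each genotype at an unadjusted p under 0.05). In the genotype comparisons 0 passed both thresholds with edgeR. There, 3 and 2 in microglia at 1 d and 7 d and 5 in infiltrating cells had an unadjusted p under 0.05. Pros1 in infiltrating cells missed only the threshold on fold change. Counts by DESeq2 are not given for this list. Between 1 d and 7 d, 1 rose and 4 fell in WT microglia, where 7.06% of all genes passed in either direction. In mutant microglia 0 rose and 2 fell, where 3.54% of all genes passed. Lman1 was the fourth gene to fall in WT. In mutant microglia its log2 fold change was -0.96 (SE 0.18, edgeR adjusted p = 0.0022), which missed only the threshold on fold change.

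Likeness of pattern was described by Pearson's r of log2 CPM over the 21 libraries, which share the same large step between populations; r is therefore a description with no test. F7, F10, Thbd and Serpinb2 had r of 0.90 to 0.95 with each other, and F5 and F13a1 0.93. Plau had r of at most 0.54 and F3 of at most 0.03 with any of the others. Plaur had r of 0.89 with F10. Among all genes with a mean of at least 10 counts, the closest to Plaur were Ndufa7 (0.976), Cdkn1a (0.974) and Il1rn (0.970), and those closest to F10 were Cd24a (0.977), Emilin2 (0.976) and S100a6 (0.976).

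For F7 they were Spsb4 (0.981), Jak2 (0.978) and S100a4 (0.977), for F13a1 Wfdc17 (0.979), Ednrb (0.977) and Myof (0.967), and for F5 Sirpb1b (0.970), Rara (0.967) and Cfp (0.960). Thbd was closest to Rab11fip1 (0.970), Sik1 (0.964) and Trem1 (0.963), and Serpinb2 to Tiparp (0.942), Acap1 (0.936) and Sik1 (0.933). The outliers had looser partners. Plau was closest to Mfge8 (0.816), Eif4e3 (0.775) and Gm20634 (0.772), and F3 to Gm43360 (0.836), Gm13776 (0.794) and Klhl15 (0.792).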

How the data were processed

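RNA of sorted cells was amplified with a low-input kit and sequenced in paired ends. The authors aligned and quantified reads with nf-core/rnaseq and salmon against GRCm38. Expected counts for each gene were deposited, of the pipeline's scaled kind (read from its output name as scaled for transcript length within a library), and not normalized between libraries. Strand handling is not given in the sources used here. Here the expected counts were rounded, genes with at least 5 counts over the 21 libraries were kept, and edgeR 4.0.16 (R 4.3.3, limma 3.58.1) fitted 1 mean per group to all libraries with TMM scaling and quasi-likelihood tests, adjusted by Benjamini-Hochberg over all genes. Calls needed an adjusted p under 0.05 (0.1 between genotypes) and an absolute log2 fold change above 1; interactions needed an adjusted p under 0.1. P-values measure the spread between libraries of pooled brains.

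Of 45706 identifiers, 45143 matched GENCODE M21. Folds are ratios of group mean CPM; a group with 0 counts was set to 3 counts per library. Members and lists were chosen with earlier results of these data known. Fold changes with tests are given for members past the threshold or at an unadjusted p under 0.05; of the further pathway genes, at most 3 per direction and comparison were named, by smallest adjusted p; Tfpi, Vkorc1, Ggcx, Vwf and F2rl2 between populations in WT cells, and Anxa2 at 7 d against 1 d, were added after their values were seen. Pattern likeness used log2 CPM with a prior count of 2. Alternatives were DESeq2 1.42.0, its size factors in edgeR, other count filters, a replicate block, the compared groups alone and leaving out each library. The procedure was tested on simulated data. The counting intervals and floors cover counting error only. Replicates were checked for duplicates: the lowest chi-square per degree of freedom between libraries of a group was 18.6.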

Additional observations from a re-analysis of the deposited data

How the results depend on the processing

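Over 44 pairs of gene and comparison, 513 recomputed values kept their direction and side of the threshold, 15 lost the call, 14 gained one and 1 reversed: the fitted interaction of genotype and population for F7, which rests on microglia at or near 0 counts, became -0.52 without WT microglia replicate 1 at 1 d (up to 4.43 without other libraries). With DESeq2 the genes called of the 9 rose from 2 to 4 for WT microglia at 1 d against sham, from 1 to 2 for WT microglia at 7 d against 1 d and from 0 to 1 between genotypes in infiltrating cells; fitting the compared groups alone gave 1 for WT microglia at 1 d against sham. Leaving out 1 library gave 2 to 3 there, 0 to 1 for WT microglia at 7 d against sham (0 without sham replicate 1), 0 to 2 for WT microglia at 7 d against 1 d, 0 to 1 for mutant microglia at 7 d against 1 d and 0 to 2 between genotypes in infiltrating cells (2 without mutant replicate 3). For infiltrating cells against microglia it gave 6 to 8 in WT and 7 to 9 in mutant mice, counting calls in either direction. The 9 include F3, whose mean over all mutant libraries at 1 d was lower in infiltrating cells (0.686 against 1.45 CPM). The cause of these changes was not tested. Same-numbered libraries were not treated as paired, as in no comparison did all 3 pairs correlate above 0.1. In mutant against WT microglia at 1 d, 2 of the 3 did (r of 0.293, 0.103 and 0.079). So did 2 of the 3 in WT infiltrating cells against microglia (r of 0.101, 0.13 and 0.035). Whether libraries of both populations with the same number came from the same brains is not given in the sources used here. With the replicate block the counts stayed at 2 and 1 for WT and mutant microglia at 1 d against sham. They stayed at 8 and 7 for infiltrating cells, with no call changed. Depth limits F7 and Serpinb2 in microglia, where 3 counts are 0.0448 to 0.158 CPM.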
